A study of Mus musculus with 12 samples.

Results

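Genes of the type I interferon response were followed in mouse midbrain microglia, brain-resident macrophages that had been purified by cell sorting. The set was a list of 39 gene symbols, named for their place in the pathway, and all 39 were found among the 21125 symbols of the deposited RNA-seq table. Control animals (WT, labelled Ppargc1a FF) carried the conditional allele of Ppargc1a, which encodes a transcriptional coactivator of mitochondrial genes. Deficient animals (KO, labelled Ppargc1a FF CreER) also carried a tamoxifen-inducible Cre, and the labels put every sample, WT included, 6 weeks after tamoxifen. Each genotype received MPTP, a toxin of dopaminergic neurons, or PBS, which makes 4 groups with 3 labelled samples each. The promoter of the Cre, the strain, the age and the dose and timing of MPTP are not stated in the labels, nor is it said whether the samples within a group are from different animals. The p-values therefore rest on the spread among profiles alone, and that spread may be technical.

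Type I interferons are signalling proteins that cells release on sensing foreign or misplaced nucleic acid. They bind a receptor of 2 chains, encoded by Ifnar1 and Ifnar2, and the kinases attached to it phosphorylate STAT2. A complex of STAT2 with IRF9 binds a DNA motif, the interferon-stimulated response element (ISRE), in front of target genes whose products restrict viruses. In microglia the response is known from infection, ageing and amyloid models, where a subset of cells shows it.

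The table did not hold 12 separate measurements, and this sets what can be compared. In 6 of the 12 columns the deposited values followed a fixed arithmetic relation to other columns, and none of the 147 rows of the interferon genes departed from it. Over the whole table, 49 rows from 42 genes departed from a relation. The 6 columns that stand apart are WT PBS 1, WT PBS 2 and WT MPTP 1 among the controls, and KO PBS 1, KO PBS 2 and KO MPTP 2 among the deficient samples. KO MPTP 1 repeats the KO PBS 2 profile times a constant, so the treatment of that profile is uncertain while its genotype is KO under both labels. Ppargc1a was 5.70, 6.21 and 2.72 FPKM in the WT profiles and 0.33, 0.12 and 0.42 FPKM in the KO profiles, in the order just given. This gene was among those that departed from a relation. It was at 0.22 FPKM in KO MPTP 1, against 0.12 FPKM in KO PBS 2. In WT PBS 3 it was at 5.6 FPKM, below both WT PBS 1 and WT PBS 2. FPKM, the unit assumed for the table, is a level relative to the length of the transcript and the mapped fragments of the library, and the separate profiles summed to between 388860.8 and 425554.2 FPKM. The read depth is unknown, so no counting error can be given. Of the microglia and macrophage markers, Cd68 and Csf1r were at 479 and 117 FPKM, whereas the homeostatic microglia genes Cx3cr1, P2ry12, Siglech and Sall1 were at 0.05, 0.19, 0.03 and 0 FPKM. Markers of T, B and NK cells summed to at most 0.08 FPKM in any profile, and those of granulocytes to between 4.13 and 6.45 FPKM. The 5 markers of plasmacytoid dendritic cells found, a major source of interferon, summed to between 41.93 and 46.58 FPKM in each profile. Of these, Irf8 and Tcf4, which other cells also express, were at 36.01 and 8.04 FPKM, and Ccr9, Siglech and Spib were at 0.01, 0.03 and 0.03 FPKM.

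The promoters were examined for sequence that the members share. RefSeq promoter windows of 300 bases, from 250 before to 50 after the start of transcription (build GRCm38.p6), were matched by symbol for 30 of the 39 genes, in 37 windows. The core of the ISRE, taken as 2 copies of GAAA separated by any 2 bases and searched on both strands with overlapping matches counted, occurred in a window of 13 of the 30 genes (43.3%). Over all 27025 genes in the same table, the share was 3.99%. The gamma-activated sequence, written TTCNNNGAA, which reads the same on both strands and may overlap the ISRE, occurred in 11 of the 30 (36.7%), against 9.55% of all genes. A match describes letters in a window and not a bound site. Windows of 5 of the 13 genes with the ISRE core are shown. These 5 differ widely in level, from Ifit1 and Ifitm3 under 1 FPKM through Isg15 at 1.16 FPKM to Bst2 and Ifitm2 at 57.1 and 197 FPKM. Capitals mark the ISRE core, and each sequence runs 5′ to 3′ on the strand of its gene.
Isg15, chr4:156200769-156201068, minus strand: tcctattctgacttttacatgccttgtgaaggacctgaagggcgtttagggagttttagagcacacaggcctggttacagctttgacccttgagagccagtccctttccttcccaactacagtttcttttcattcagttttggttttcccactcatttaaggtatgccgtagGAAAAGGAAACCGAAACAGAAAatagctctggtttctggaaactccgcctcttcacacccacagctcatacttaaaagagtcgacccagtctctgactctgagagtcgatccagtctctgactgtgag
Ifit1, chr19:34640639-34640938, plus strand: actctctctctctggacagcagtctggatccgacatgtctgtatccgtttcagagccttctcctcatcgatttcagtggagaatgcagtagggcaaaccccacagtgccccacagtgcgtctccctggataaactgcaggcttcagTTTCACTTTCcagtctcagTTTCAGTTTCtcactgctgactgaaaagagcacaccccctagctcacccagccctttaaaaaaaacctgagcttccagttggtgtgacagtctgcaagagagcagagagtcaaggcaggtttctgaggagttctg
Ifitm3, chr7:141010695-141010994, minus strand: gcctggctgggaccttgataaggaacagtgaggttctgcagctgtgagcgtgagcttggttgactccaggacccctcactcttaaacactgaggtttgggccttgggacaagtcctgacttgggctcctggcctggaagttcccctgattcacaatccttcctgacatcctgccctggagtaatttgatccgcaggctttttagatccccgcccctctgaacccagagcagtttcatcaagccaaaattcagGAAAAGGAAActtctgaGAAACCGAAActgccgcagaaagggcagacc
Ifitm2, chr7:140955912-140956211, minus strand: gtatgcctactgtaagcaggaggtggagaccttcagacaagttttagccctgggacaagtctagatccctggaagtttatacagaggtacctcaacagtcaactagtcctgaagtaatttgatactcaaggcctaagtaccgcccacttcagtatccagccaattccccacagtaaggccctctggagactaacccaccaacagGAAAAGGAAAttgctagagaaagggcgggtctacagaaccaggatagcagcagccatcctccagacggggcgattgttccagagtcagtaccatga
Bst2, chr8:71537423-71537722, minus strand: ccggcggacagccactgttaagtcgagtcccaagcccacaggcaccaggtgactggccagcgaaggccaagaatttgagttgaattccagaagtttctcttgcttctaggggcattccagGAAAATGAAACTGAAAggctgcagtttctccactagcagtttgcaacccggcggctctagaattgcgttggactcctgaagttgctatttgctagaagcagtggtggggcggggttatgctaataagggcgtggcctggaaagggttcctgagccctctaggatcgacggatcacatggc
In Isg15, 3 overlapping matches began 78, 72 and 66 bases before the start. In Ifit1 the matches lay on the other strand, 104 and 85 bases before it. Ifitm3 had matches 2 and 19 bases past the start, Ifitm2 had 1 match 46 bases before it, and Bst2 had overlapping matches 130 and 124 bases before it.

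The levels ran from 0 to 197 FPKM. The mean over the 6 profiles was at least 10 FPKM for 13 of the 39 genes, between 1 and 10 FPKM for 14, and under 1 FPKM for 12. The median gene of the set was at 3.15 FPKM, against 1.035 FPKM over all genes. The 12 under 1 FPKM were Ifit1, Ifit2 and Ifit3, Mx1 and Mx2, Rsad2, Oas2, Ifi44, Ifitm1, Ifitm3, Ifih1 and Ddx58, most of which are known as strongly induced by interferon. Genes with and without an ISRE core overlapped in level: the 13 genes with a match had a median of 1.16 FPKM and ran from 0 to 197 FPKM, and the 17 without one had a median of 3.78 FPKM and ran from 0.0033 to 56.0 FPKM.

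**Figure D1:**
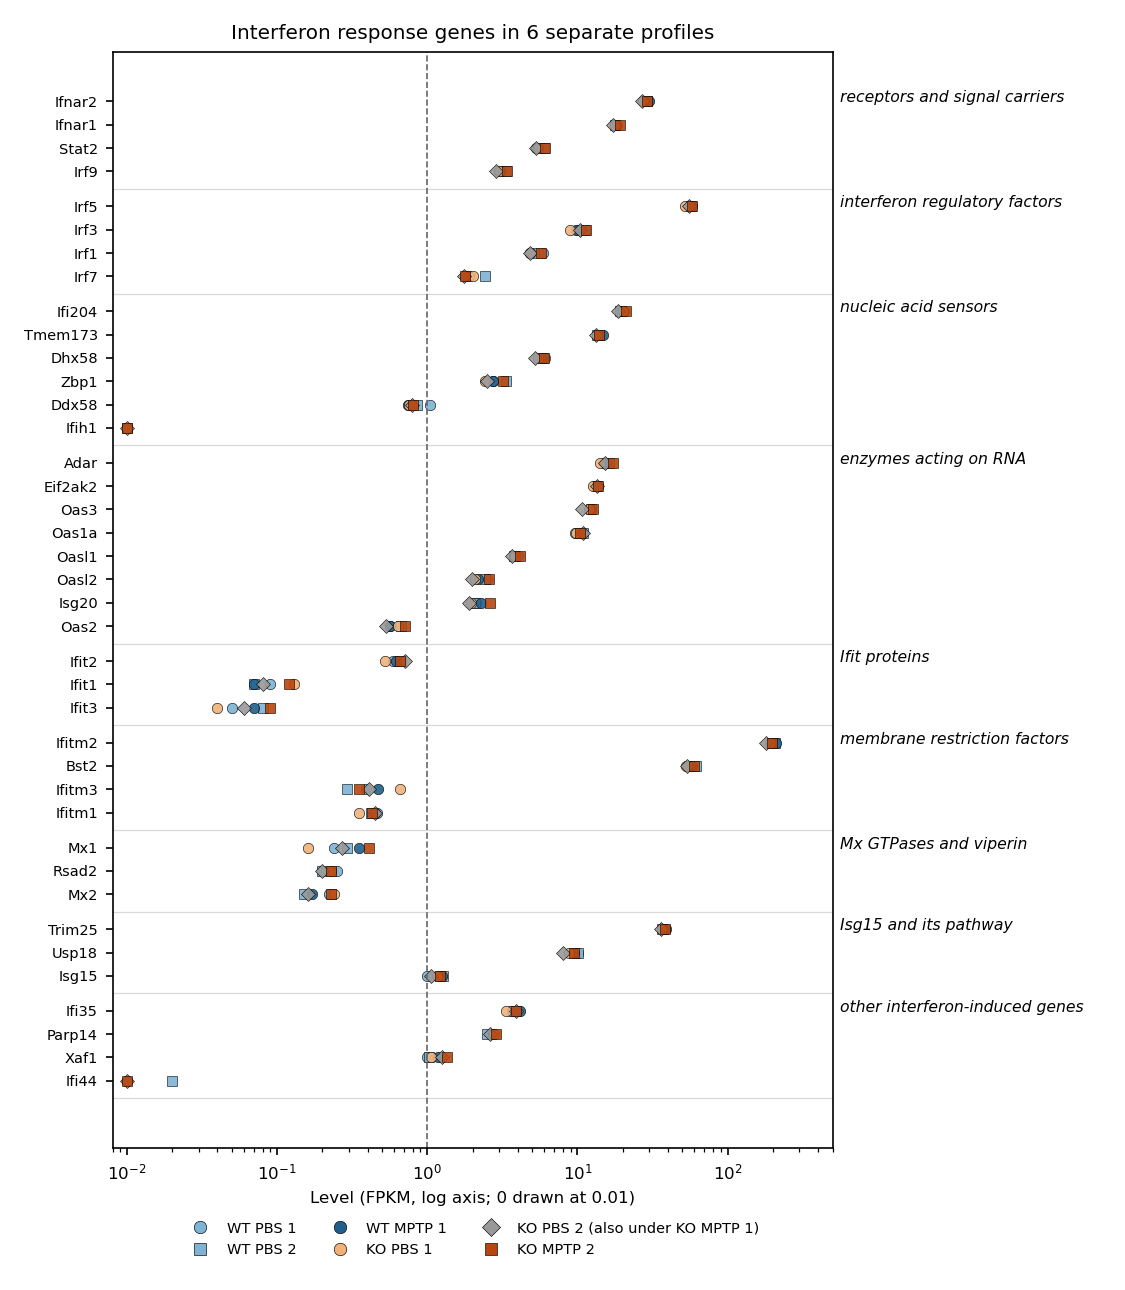
Level of each interferon response gene (FPKM, log axis, 0 drawn at 0.01) in the 6 separate profiles, grouped by role, with 1 symbol per profile and a dashed line at 1 FPKM. Ifitm2 lies between 180.01 and 209.81 FPKM, whereas the Ifit and Mx genes and Rsad2 lie below 1 FPKM in all of them.

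**Figure D2:**
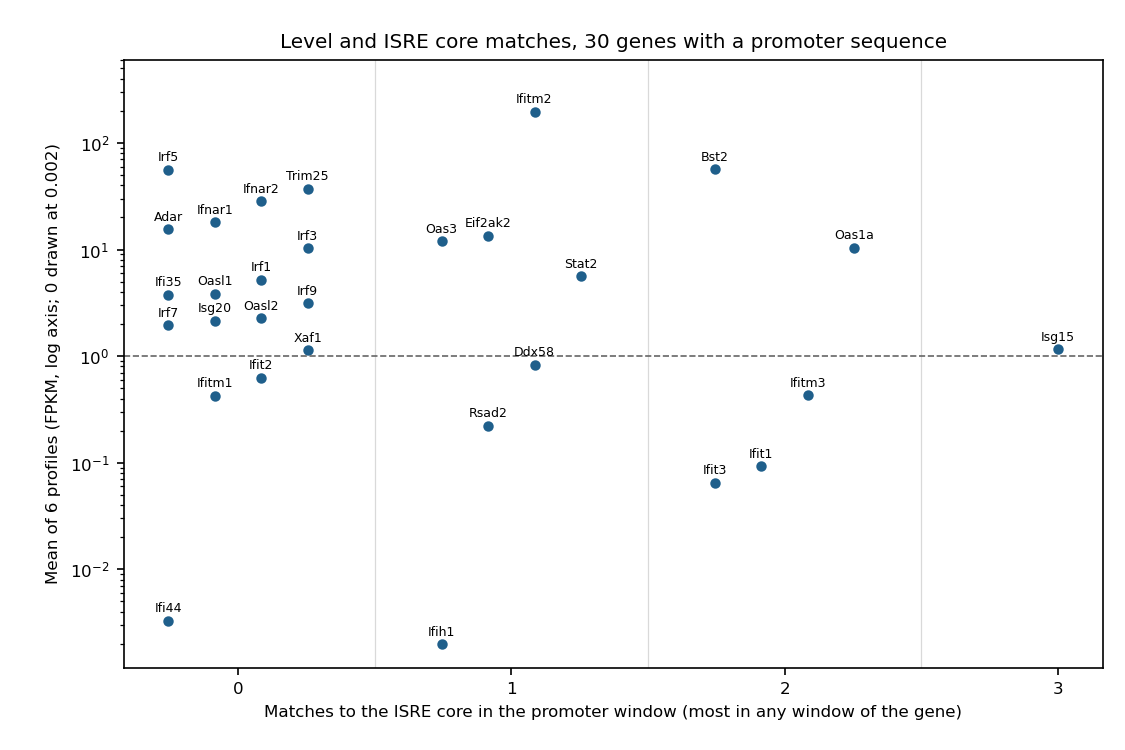
Mean level over 6 profiles (FPKM, log axis, 0 drawn at 0.002) against the number of ISRE core matches in the promoter window, for the 30 genes with a sequence, with 1 point per gene, shifted sideways only to separate labels, and a dashed line at 1 FPKM. Genes with 2 matches run from Ifit3 at 0.07 FPKM to Bst2 at 57.1 FPKM.

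The receptor and the proteins that carry its signal were all present. Ifnar2, the longer-tailed receptor chain that docks STAT2, was at 28.62 FPKM in WT PBS 1, 29.23 in WT PBS 2, 30.08 in WT MPTP 1, 27.31 in KO PBS 1, 26.79 in KO PBS 2 and 28.86 in KO MPTP 2. Its partner Ifnar1 was at 18.16, 17.70, 18.46, 17.72, 17.30 and 19.16 FPKM in the same order of profiles, which is kept below. The WT and KO values of both genes overlapped. Stat2, the transcription factor subunit, was lower at 5.67 ± 0.35 FPKM, and Irf9, the DNA-binding subunit of the complex, was at 3.15 ± 0.20 FPKM (mean ± SD, n = 6 profiles, here and below). Of genes outside the set, Ptpn6, a phosphatase that dampens the signal, was at 78.6 ± 2.8 FPKM and was the highest of the kinases and feedback regulators listed. The receptor kinase genes Jak1 and Tyk2 were at 61.2 ± 1.4 and 9.77 ± 0.65 FPKM. The ligands were not seen at a comparable level. Of 21 listed interferon genes 5 were found in the table, and the highest, Ifnk, averaged 0.06 FPKM. Ifnb1, the main interferon of macrophages, was listed at 0 in 5 profiles and at 0.02 FPKM in KO PBS 2.

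The interferon regulatory factors differed widely in level. Irf5, a factor of inflammatory macrophages, was the highest, at 55.17, 57.06, 58.17, 52.25, 55.32 and 58.24 FPKM. Irf3, which is present before any signal and starts interferon production, was at 10.06, 11.17, 9.79, 8.97, 10.40 and 11.35 FPKM. KO PBS 1 was the lowest profile for both and KO MPTP 2 the highest. Irf1, an activator that responds to both interferon types, was at 5.91, 5.15, 4.86, 4.80, 4.82 and 5.72 FPKM. Irf7, the factor that amplifies the response, was low at 1.90, 2.41, 1.78, 2.03, 1.76 and 1.77 FPKM, spread over 10 rows of which the leading one held 26.1% of the sum. The spread between the WT PBS profiles was widest for Irf7 among the 27 tested genes, at 0.23 on the log2(FPKM + 1) scale.

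Among the sensors of nucleic acid, Ifi204, a DNA sensor of macrophages, was at 19.68, 19.27, 20.55, 20.16, 18.68 and 21.21 FPKM. Tmem173, which encodes the adaptor STING downstream of cGAS, was at 13.54, 13.49, 14.69, 13.45, 13.21 and 13.83 FPKM, so that WT MPTP 1 stood above the other profiles. Dhx58, a helicase that modulates RNA sensing, was at 5.73 ± 0.33 FPKM, and Zbp1, a sensor of left-handed nucleic acid, at 2.83 ± 0.36 FPKM. The RNA sensor Ddx58 (RIG-I) stayed near 0.83 ± 0.11 FPKM. Ifih1 (MDA5) was listed at 0 in all profiles, but its only row carried the number 5, and no rows with the 4 lower numbers were found. Such gaps affected 15 of the 39 genes (38.5%), against 24.9% of all symbols whose rows carry 1 number, and 4 of the 12 genes under 1 FPKM: Ifih1, Ifi44, Ddx58 and Mx1. For these genes the sum may miss part of the transcripts. Of 20 listed upstream genes found, the highest were Samhd1, which degrades nucleotides and limits interferon induction, at 81.5 ± 2.8 FPKM and Rnaseh2a, a subunit of an enzyme that removes RNA from DNA, at 34.7 ± 1.2 FPKM. Mavs, the adaptor of the RNA sensors, was at 20.2 ± 0.9 FPKM, and Mb21d1, which encodes cGAS, was at 3.26 ± 0.31 FPKM.

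Enzymes that act on RNA were led by Adar, which edits adenosine to inosine in double-stranded RNA, at 15.45, 16.23, 15.05, 14.11, 15.28 and 17.31 FPKM. Eif2ak2 (PKR), the kinase that halts translation on double-stranded RNA, was nearly level at 13.72, 13.49, 13.72, 12.72, 13.53 and 13.81 FPKM. The oligoadenylate synthetases, which activate RNase L, ranged from Oas3 at 12.04 ± 0.69 and Oas1a at 10.4 ± 0.6 FPKM to Oas2 at 0.61 ± 0.07 FPKM. The related Oasl1 and Oasl2 were at 3.87 ± 0.19 and 2.29 ± 0.23 FPKM. Within Oasl1 the 2 leading rows went opposite ways while the level of the gene stayed between 3.65 and 4.16 FPKM. One row held 1.76, 2.19, 2.87, 3.38, 2.18 and 2.87 FPKM, and the other 1.75, 1.31, 0.88, 0.25, 0.86 and 0.90 FPKM. These rows were picked after their values were seen. Isg20, an exonuclease, was at 2.11, 2.07, 2.28, 1.95, 1.90 and 2.62 FPKM, highest in KO MPTP 2.

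The membrane factors held both extremes of their families. Ifitm2, which blocks viral entry at endosomes, was the highest gene of the set and ranked 270 among all genes, at 197.45, 207.37, 209.81, 190.73, 180.01 and 196.33 FPKM. Ifitm3, a close relative with the same role, was at 0.39, 0.29, 0.47, 0.66, 0.41 and 0.35 FPKM, and Ifitm1 was at 0.43 ± 0.04 FPKM. Shared sequence bears on how reads could be assigned. Of the 31-base words of the Ifitm2 transcript, 55.5% also occurred in transcripts of other genes, as did 20.5% of those of Ifitm3 (GENCODE vM21). The single gene sharing most was Gm45717 for Ifitm2 (38.1%) and Gm7676 for Ifitm3 (7.4%), not another of the Ifitm genes named here. The share was 68.8% for Oas1a, mostly with Oas1g, 61.8% for Ifit3, with Ifit3b, and 46.0% for Ifi204. The levels of these 5 genes are uncertain for this reason, and for the other members the share was at most 14.7%. Bst2 (tetherin), which holds budding virions at the cell surface, was at 56.92, 61.42, 58.19, 52.47, 54.03 and 59.45 FPKM.

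The genes most often used to read an interferon response were low in every profile. Isg15, the ubiquitin-like protein gene, was at 0.99, 1.28, 1.25, 1.16, 1.06 and 1.21 FPKM. Ifit2 was at 0.63 ± 0.07, Ifit1 at 0.09 ± 0.03 and Ifit3 at 0.07 ± 0.02 FPKM; the Ifit proteins bind foreign RNA ends. Mx1 and Mx2, GTPases that trap viral particles, were at 0.29 ± 0.09 and 0.20 ± 0.04 FPKM, Rsad2 (viperin) at 0.22 ± 0.02 FPKM, and Ifi44 was listed at 0 in 5 of the 6 profiles. Usp18, which removes ISG15 from proteins and restrains the receptor, was an exception at 10.07, 10.02, 9.53, 8.81, 8.01 and 9.46 FPKM. Trim25, a ligase of the RIG-I pathway, was at 37.05, 36.74, 38.90, 36.61, 35.92 and 38.07 FPKM. The remaining Ifi35, Parp14 and Xaf1 were between 1.15 and 3.78 FPKM on average. Among 69 further interferon-induced genes found in the table, 22 were under 1 FPKM, including Cxcl10 at 0.06 and Rtp4 at 0.02 FPKM, and 18 were at 10 FPKM or more, led by Ifi30, a lysosomal reductase, at 370.04 ± 17.0 FPKM and Ly6e at 105.2 ± 5.1 FPKM.

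Group comparisons were made with limma on log2(FPKM + 1) over 5 profiles, leaving out the one under 2 labels. WT PBS then had 2 profiles and every other group 1. The single profiles are assumed to vary like the WT PBS pair, which alone gives a residual degree of freedom. A gene was tested if 3 or more of the 6 profiles reached 1 FPKM, which left 10634 genes, 27 of them interferon genes, and the other 12 members were not tested. A change in such bulk samples cannot tell fewer cells of a type from less RNA per cell. Between the WT PBS profiles the 27 genes differed by between −0.17 and 0.23 on the log2 scale. Over all 6 profiles their median SD was 0.08, against 0.07 for all genes tested.

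MPTP in WT animals was followed by no called change in the set. With limma and a Benjamini-Hochberg threshold of 0.05, 0 of the 27 genes were called in WT MPTP against WT PBS, and 0 had an unadjusted p under 0.05. Of all genes tested, 0.254% were called and 2.65% had an unadjusted p under 0.05. The median of the set was 0.01, against 0.04 for all genes, and 14 of the 27 lay above 0, where 73.0% of all genes did. The lowest value was −0.18 ± 0.11 (SE) for Irf7, followed by −0.15 ± 0.11 for Irf1 and −0.15 ± 0.09 for Stat2. The highest were 0.13 ± 0.10 for Ifi35, 0.12 ± 0.09 for Xaf1 and 0.11 ± 0.08 for Tmem173. The 95% intervals of all 27 genes lay between −0.43 and 0.35 on the log2(FPKM + 1) scale, a scale that understates the change of low genes.

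In KO animals nearly all interferon genes had a higher value with MPTP, but so did most of the transcriptome. KO MPTP 2 was above KO PBS 1 for 26 of the 27 genes, and for 86.5% of all genes. The median was 0.11 in the set and 0.09 over all genes. No interferon gene passed the adjusted threshold (limma, 0 of 27, with 0.292% of all genes called), and 4 had an unadjusted p under 0.05, all higher (14.8%), against 8.77% of all genes on that side. These were Irf3 at 0.31 ± 0.11 (SE), Isg20 at 0.30 ± 0.11, Zbp1 at 0.29 ± 0.13 and Adar at 0.28 ± 0.10, with limma adjusted p-values of 0.439, 0.464, 0.539 and 0.431. The lowest value was −0.13 ± 0.13 for Irf7, then 0.03 ± 0.11 for Parp14 and 0.03 ± 0.12 for Isg15. The intervals of the 27 genes lay between −0.42 and 0.57. After rescaling the profiles by the median of ratios, the median of the set was 0.01, 16 of the 27 were above 0 and none had an unadjusted p under 0.05. KO PBS 2 bears on the size of these values, because its treatment is uncertain: at 10.40 FPKM Irf3 there lay between KO PBS 1 and KO MPTP 2, whereas Isg20 at 1.90 FPKM lay below both. With that profile counted as KO PBS, 26 of the 27 genes were above 0, as were 85.2% of all genes. The medians were then 0.12 in the set and 0.08 over all genes. The number of the 27 genes with an unadjusted p under 0.05 was unchanged, and that of all genes was higher. With that profile counted as KO MPTP, 20 of the 27 genes were above 0, as were 80.2% of all genes, the median of the set was 0.04, and 1 gene had an unadjusted p under 0.05 on the higher side, where 5.09% of all genes did. Cell markers moved with this comparison too. S100a8, a granulocyte gene, was at 3.75, 4.35, 5.75, 3.81, 3.68 and 5.76 FPKM, higher in both MPTP profiles than in the PBS profiles. Of the other granulocyte markers found, Elane was at 0.52 FPKM on average, and Ly6g and Mpo reached at most 0.02 FPKM in any profile. The microglia marker Aif1 was at 7.94, 8.38, 7.31, 7.08, 7.38 and 9.11 FPKM, highest in KO MPTP 2. In the limma fit S100a8 differed by 0.42 ± 0.11 in WT and 0.49 ± 0.12 in KO, and Aif1 by −0.14 ± 0.09 and 0.32 ± 0.11, with adjusted p-values of 0.566, 0.215, 1 and 0.4. Their part in the values of the interferon genes was not tested.

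**Figure D3:**
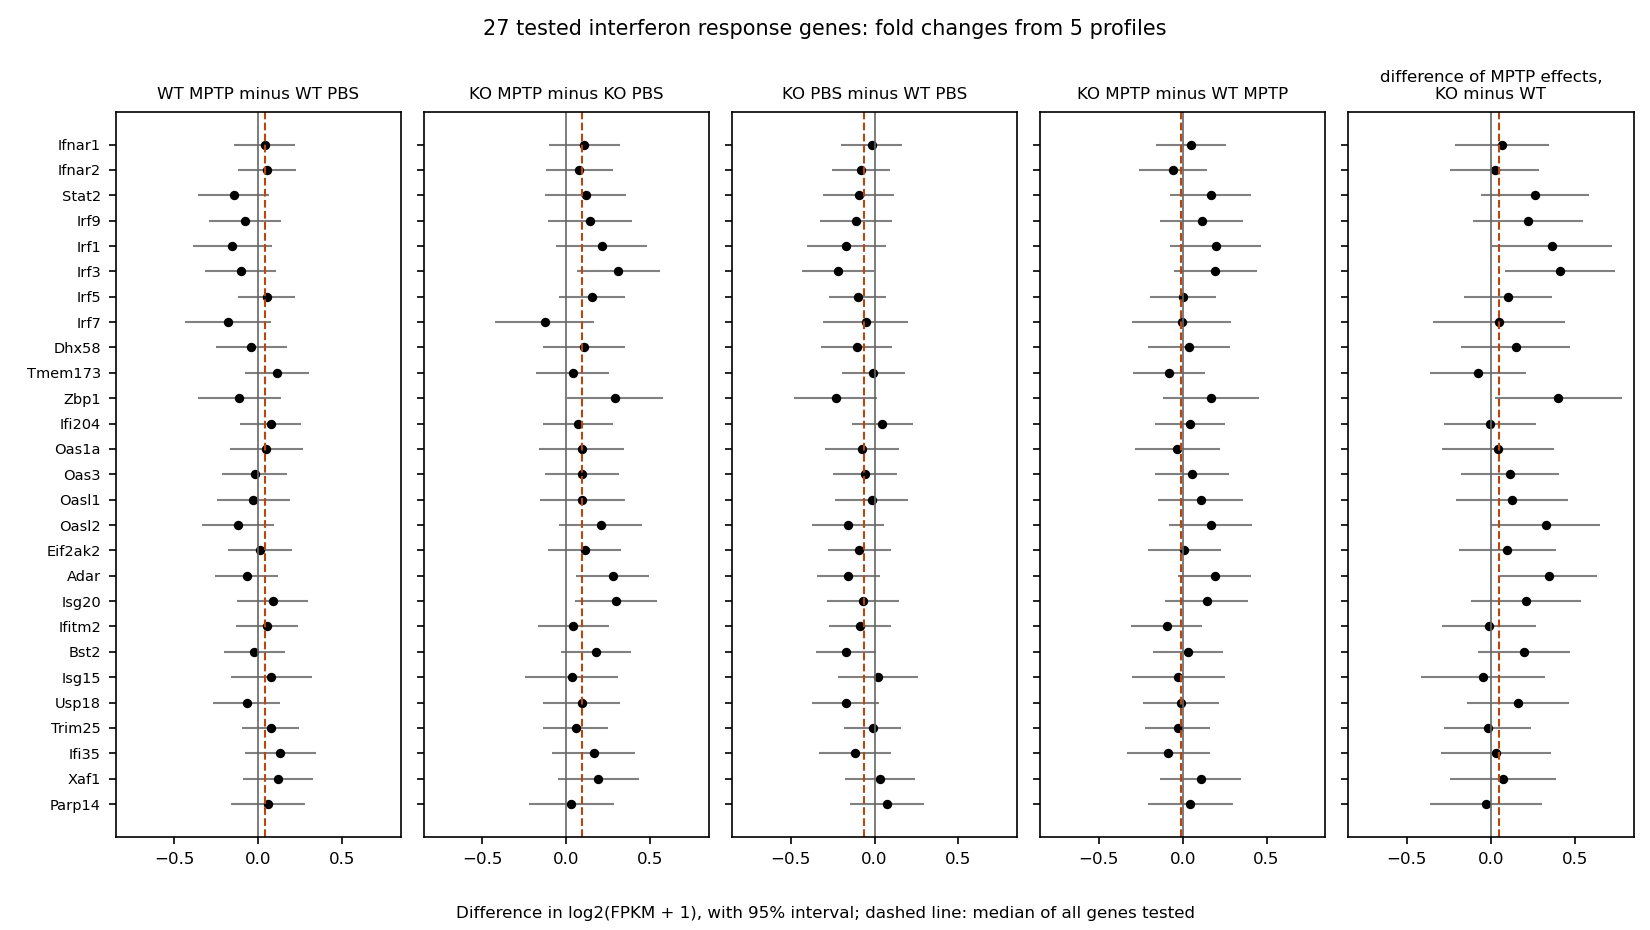
Differences in log2(FPKM + 1) for the 27 tested genes in 5 comparisons, as points with 95% intervals, with a dashed line at the median of all genes tested and a solid line at 0. In KO MPTP against KO PBS 26 points lie above 0 and the dashed line lies at 0.09, and no gene passed the adjusted threshold in any panel.

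Without the toxin, KO values were mostly a little below WT values. In KO PBS 1 against the WT PBS pair, 4 of the 27 genes were above 0, with a median of −0.08, and 22.1% of all genes were above 0, with a median of −0.06. No interferon gene was called (limma, 0 of 27, with 0.226% of all genes called), and 1 had an unadjusted p under 0.05, on the lower side, as for 4.05% of all genes: Irf3 at −0.22 ± 0.10 (SE; adjusted p = 0.909). Beside it were Zbp1 at −0.23 ± 0.11 and Usp18 at −0.17 ± 0.09. On the other side Parp14 was at 0.08 ± 0.10, Ifi204 at 0.05 ± 0.08 and Xaf1 at 0.04 ± 0.09. The intervals lay between −0.48 and 0.29. After rescaling, 9 of the 27 genes were above 0 and the median was −0.02. With KO PBS 2 counted as KO PBS, 3 of the 27 were above 0, as were 28.5% of all genes. The medians were then −0.09 in the set and −0.04 over all genes. More of the 27 genes, and more of all genes, then had an unadjusted p under 0.05 on the lower side.

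Under MPTP no difference between the genotypes was called in the set, and the direction of its median depended on the profile of uncertain treatment. KO MPTP 2 against WT MPTP 1 gave a median of 0.04 in the set and −0.01 over all genes, with 18 of the 27 above 0, where 45.7% of all genes were. None was called (limma, 0 of 27, with 0.103% of all genes called) and none had an unadjusted p under 0.05, against 3.59% of all genes. Irf1 at 0.20 ± 0.12 (SE), Irf3 at 0.19 ± 0.11 and Adar at 0.19 ± 0.10 were the highest. Ifitm2 at −0.10 ± 0.10, Ifi35 at −0.09 ± 0.11 and Tmem173 at −0.08 ± 0.10 were the lowest, and the intervals lay between −0.33 and 0.47. With KO PBS 2 counted as KO MPTP the median of the set was −0.02, with 10 of the 27 genes above 0 and 31.4% of all genes, and it was also below 0, at −0.0044, with the KO MPTP 1 values and, at −0.0073, with only the row of highest mean per gene. This comparison shares its profiles with those on MPTP in WT and in KO.

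The MPTP effect was also compared between genotypes by an interaction term. None of the 27 was called (limma, with 0.0752% of all genes called), and 4 had an unadjusted p under 0.05, all with a higher MPTP effect in KO (14.8%), against 4.72% of all genes on that side. Irf3 had 0.41 ± 0.15 (SE), Zbp1 0.40 ± 0.17, Irf1 0.37 ± 0.16 and Adar 0.35 ± 0.13, with limma adjusted p-values of 0.734, 0.909, 0.941 and 0.776. In all 4 genes the WT PBS mean was above WT MPTP 1, and KO MPTP 2 was above KO PBS 1. The lowest values were −0.07 ± 0.13 for Tmem173, −0.05 ± 0.16 for Isg15 and −0.03 ± 0.15 for Parp14. The median was 0.10 in the set and 0.05 over all genes. The term was above 0 for 21 of the 27 genes and for 67.1% of all genes, and the intervals lay between −0.41 and 0.78. With KO PBS 2 counted as KO PBS, it was above 0 for 22 of the 27 genes and for 61.9% of all genes. The medians were then 0.12 and 0.03. More of the 27 genes, and more of all genes, then had an unadjusted p under 0.05 on the higher side. After median-of-ratios rescaling Irf3, Zbp1 and Adar had an unadjusted p under 0.05 on the higher side, where 3.46% of all genes did, and the median was 0.04. After quantile normalization none of the 27 had one. When KO PBS 2 was counted as KO MPTP, 1 gene had one on the higher side, and with only the row of highest mean per gene, 1 had one on the lower side.

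The 3 WT profiles were also compared with the 3 KO profiles, a grouping that does not need the doubtful treatment label. This comparison was added after the data had been seen. It held no term for treatment, so whether both genotypes mixed PBS and MPTP alike depends on the label of KO PBS 2. Usp18 was at 9.87 ± 0.30 FPKM in WT and 8.76 ± 0.73 FPKM in KO, and Ifitm2 at 204.9 ± 6.5 and 189.02 ± 8.29 FPKM (mean ± SD, n = 3 profiles each). For these 2 genes every KO profile was below every WT profile, which is 7.41% of the 27 tested genes, against 7.23% of all genes. No interferon gene had all KO profiles above all WT profiles, as 0.828% of all genes did. In a limma fit of genotype alone, Usp18 was at −0.16 ± 0.06 (SE; adjusted p = 0.997) and Ifitm2 at −0.12 ± 0.05 (adjusted p = 0.997), and they were the only ones of the 27 genes with an unadjusted p under 0.05, against 3.49% of all genes. The fit called 0 of the 27 genes and 0.0376% of all genes. After rescaling, the KO and WT values of both genes overlapped, and of the 27 genes only Ifnar2 had separate groups, with KO lower, as did 4.56% of all genes. The summed FPKM of all genes was 401732.53 to 425554.19 in WT and 388860.81 to 409277.56 in KO, and that of the microglia and macrophage markers 904.25 to 922.22 and 822.33 to 895.11. Their part in these differences was not tested.

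As deposited, the extremes of the set fell mostly in 2 KO profiles. After rescaling, KO PBS 2 was still most often the lowest, whereas KO MPTP 2 was no longer most often the highest. KO MPTP 2 was the highest profile for 14 of the 27 tested genes (51.9%), as it was for 28.8% of all genes, and KO PBS 2 was the lowest for 14 of the 27 (51.9%), as it was for 22.4% of all genes. WT MPTP 1 was the highest for 5 of the 27 genes (18.5%) and for 31.6% of all genes. With the profiles rescaled, WT PBS 2 was most often the highest, for 9 of the 27 genes (33.3%) and 19.5% of all genes. KO MPTP 2 was then the highest for 6 of the 27 (22.2%) and 18.8% of all genes, and KO PBS 2 the lowest for 10 of the 27 (37%) and 18.5% of all genes. As deposited, genes with KO PBS 2 lowest included Usp18, Oas3, Dhx58, Ifnar1 and Ifnar2, and those with KO MPTP 2 highest included Irf3, Adar, Isg20, Oas3 and Stat2. These counts describe single profiles and carry no test.

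**Figure D4:**
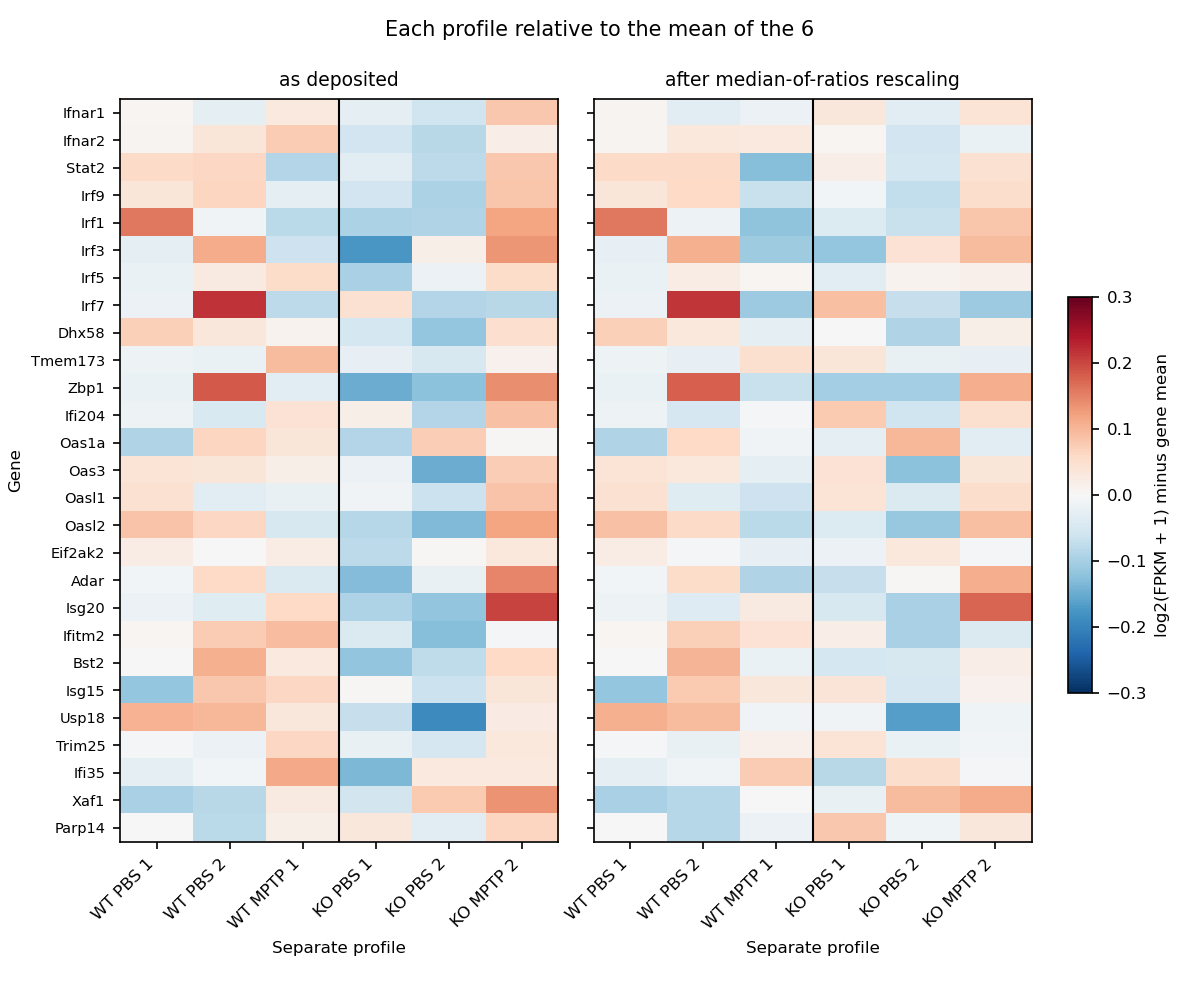
Each profile's log2(FPKM + 1) minus the mean of the 6 profiles, for the 27 tested genes, as deposited (left) and rescaled (right), with WT left and KO right of the line and colour from −0.3 (blue) to 0.3 (red). As deposited, KO MPTP 2 is the highest profile for 14 genes and KO PBS 2 the lowest for 14, and after rescaling for 6 and 10.

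Other genes of the pathway were tested in the same fit. Of 81 tested genes in the lists of kinases and feedback regulators, of upstream adaptors and of further interferon-induced genes, 0 were called in any of the 5 comparisons (limma). Unadjusted p-values under 0.05 numbered 2 for MPTP in WT, 5 for MPTP in KO, 3 for genotype under PBS, 1 for genotype under MPTP and 1 for the interaction, that is 2.47%, 6.17%, 3.70%, 1.23% and 1.23% of the 81. Over all genes tested the shares were 2.65%, 9.23%, 4.42%, 3.59% and 5.17%. Adjusted calls over all genes were 0.254%, 0.292%, 0.226%, 0.103% and 0.0752% in the same order. The medians of the 81 genes were 0.04, 0.08, −0.07, −0.01 and 0.04, and those of all genes 0.04, 0.09, −0.06, −0.01 and 0.05.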

How the data were processed

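Total RNA of sorted midbrain microglia was sequenced in 12 samples. The authors deposited 1 table of 67355 rows, and per the submitters' processing notes CASAVA 1.5, Bowtie 0.12.7, TopHat, Cufflinks and build mm9 were used, with no role or order given. The unit is not stated; the deposited values were taken as FPKM because Cufflinks writes that unit. The annotation and what the numbered rows stand for: not given in the sources used here. Depth is unknown.

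Rows were summed per symbol after the trailing number was removed. 1 row with text in place of a number was left out. A row followed its column relation when within 0.0101 FPKM (multiples) or 0.00995 FPKM (0.1 plus 0.99 times a mean). limma 3.58.1 in R 4.3.3 with a mean-variance trend was fitted to log2(FPKM + 1), 1 mean per group, with Benjamini-Hochberg adjustment per comparison over 10634 genes (1 residual and 9.01 prior degrees of freedom), and was tested on simulated data. Genes named with fold changes are the 3 highest and 3 lowest per comparison and those with an unadjusted p under 0.05. Levels were named by role, the 2 highest first, with every gene under the filter. The members and lists were chosen with earlier results of these data known. Alternatives were other pseudocounts (0.1 and 0.5), filters, scalings, row choice, treatments of the profile under 2 labels, left-out profiles and a replicate block. Promoters came from RefSeq (GRCm38.p6), matched by symbol, and 33 of 37 windows matched a GENCODE vM21 transcript of their gene on the printed strand over the last 30 bases. The table carries no coordinates, and the labels give no batch.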

Additional observations from a re-analysis of the deposited data

How the results depend on the processing

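Across the alternatives other than the fit to all 12 columns, 0 of the interferon genes were called in each of the 5 comparisons. These included the replicate block (0) and fits without WT PBS 1, WT PBS 2 or KO PBS 1 (0 to 0), all with KO PBS 2 counted as KO PBS. Treating the 12 columns as separate libraries, which counts computed columns as replicates, called 3 for MPTP in WT (Tmem173 and Trim25 higher, Stat2 lower; 20.2% of all genes), 4 lower for genotype under PBS (Ifnar2, Ifitm2, Bst2 and Usp18; 12.4%), 4 lower for genotype under MPTP (Ifnar2, Tmem173, Ifitm2 and Trim25; 14.5%) and 0 for MPTP in KO and the interaction (0.197% and 1.19%). Among the remaining alternatives, calls over all genes ranged from 0 to 40 for MPTP in WT, 0 to 51 for MPTP in KO, 0 to 39 for genotype under PBS, 0 to 26 for genotype under MPTP and 0 to 27 for the interaction, with 0 in each when no filter was used.

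The median of MPTP in KO moved to 0.0117 with median-of-ratios and 0.0065 with quantile scaling, and was 0.04 with KO PBS 2 counted as KO MPTP. That of genotype under MPTP turned to −0.02 with this count. Of the single-gene values, 405 kept direction and call, 5 became calls in the 12-column fit, and 21 changed sign, all 21 without a call. For MPTP in KO, Parp14 and Isg15 turned to −0.0481 and −0.0247 with median-of-ratios, −0.0753 and −0.0566 with quantile scaling, −0.0181 and −0.0177 with KO PBS 2 counted as KO MPTP, and −0.0082 and −0.0107 with the KO MPTP 1 values. Ifi204 for genotype under PBS turned to −0.0048 with KO PBS 2 counted as KO PBS, −0.0046 with 12 columns and −0.0048 with the replicate block. Parp14 in the interaction turned to 0.0038 with KO PBS 2 counted as KO PBS and 0.0774 with the replicate block. Irf1 for genotype under MPTP turned to −0.0389 with only the row of highest mean. The fits with a profile left out all counted KO PBS 2 as KO PBS. Without KO PBS replicate 1, Irf7 for MPTP in KO was 0.0052, Ifi204 for genotype under PBS −0.0571, and in the interaction Isg15 was 0.0224 and Parp14 0.0371. Without WT PBS replicate 2, Ifi204 was −0.0192 and Parp14 0.0441, and without WT PBS replicate 1, Isg15 in the interaction was 0.0863. The cause was not tested.

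The replicate block paired WT PBS and KO PBS profiles by number, which needs KO PBS 2 counted as KO PBS. Across the 10634 tested genes, the difference between WT PBS 1 and WT PBS 2 correlated at 0.227 with that between KO PBS 1 and KO PBS 2. The labels do not say that a number marks a batch. All limits rest on 1 residual degree of freedom and an unknown depth.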
